A study of Mus musculus with 8 samples.

Results

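Reactive astrocyte genes were examined in RNA sequencing data from activated primary mouse microglia treated with ligands of adenosine receptors. The 10 genes were taken by name and comprise 5 genes of the Serpina3 family (Serpina3f, Serpina3g, Serpina3i, Serpina3m and Serpina3n) together with Vim, Osmr, S1pr3, Cd44 and Emp1. They are 10 of 31406 genes listed for the combined treatment against the A2A antagonist, and all 10 recur among the 31601 genes listed for the A2A antagonist against control. The rule that picks them uses their names and no measured value, although they were proposed with earlier results of these data known.

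The microglia came from the striatum of wild-type C57/BL6 mouse pups and were kept for 15 days in culture. All cultures were activated for 48 h with LPS and interferon-γ, and ligands were added at 24, 32 and 40 h. According to the sample titles, 4 libraries received SCH58261, an antagonist of the adenosine A2A receptor (A2A antagonist group), and 4 received SCH58261 together with 200 nM 2-Cl-IB-MECA, an agonist of the adenosine A3 receptor (dual group). Another label, the treatment field, contradicts the titles by placing 2-Cl-IB-MECA in the 4 libraries whose titles lack it, whereas the deposited count columns carry names that match the titles. Every statement of higher or lower between the groups follows the titles. Activated cells given vehicle (control) are represented here only by the authors' mean per gene, and neither litter nor batch is given for any library.

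When the brain is injured or inflamed, astrocytes change shape and switch on a set of genes, a state called reactive. Some of these genes mark reactive astrocytes in general (Vim, Osmr, Cd44, S1pr3 and Serpina3n), and others, such as Emp1, have been linked to a trophic form described after ischemia. Serpina3 proteins are serpins, secreted or intracellular inhibitors that trap a protease by offering it a bait loop. The mouse carries a cluster of close Serpina3 copies where humans have the gene of α1-antichymotrypsin. Cytokines of the interleukin-6 family, to which oncostatin M belongs, act through STAT3 and are known inducers of acute-phase genes of this kind. Several of the 10 genes are also used by other cells, Vim and Cd44 by microglia and fibroblasts among them.

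The 5 Serpina3 genes are protein-coding genes of a cluster on the plus strand of chromosome 12 (GRCm38), which also holds other Serpina3 genes. Serpina3f (ENSMUSG00000066363) is at chr12:104214544-104221129, Serpina3g (ENSMUSG00000041481) at chr12:104236245-104241939 and Serpina3i (ENSMUSG00000079014) at chr12:104263122-104269372. Serpina3m (ENSMUSG00000079012) follows at chr12:104338486-104394257 and Serpina3n (ENSMUSG00000021091) at chr12:104406729-104414329. Their coding sequences were identical at 82.3% of 648 aligned bases for the least alike pair, Serpina3g and Serpina3m. For the most alike pair, Serpina3f and Serpina3i, this was 92.1% of 1220 aligned bases. The coding sequence used for Serpina3g was shorter, at 744 bases against 1224 to 1335 in the other copies. How close the copies are is seen in the 90-base stretch of coding sequence, free of gaps in all 5 genes, that differed least between them. It is exonic in each gene and is shown because reads from such a stretch can be assigned to the wrong copy. Capitals mark the bases that differ from Serpina3n, of which there were 1 in Serpina3f, 3 in Serpina3g, 4 in Serpina3i and 4 in Serpina3m.
Serpina3n (chr12:104411285-104411374, plus strand): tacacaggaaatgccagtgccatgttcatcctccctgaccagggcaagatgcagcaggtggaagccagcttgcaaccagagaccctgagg
Serpina3f (chr12:104218364-104218453, plus strand): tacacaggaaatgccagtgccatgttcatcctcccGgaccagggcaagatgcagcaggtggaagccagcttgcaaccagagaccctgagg
Serpina3g (chr12:104239193-104239282, plus strand): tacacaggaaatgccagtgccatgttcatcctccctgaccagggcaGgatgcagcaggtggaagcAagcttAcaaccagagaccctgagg
Serpina3i (chr12:104266603-104266692, plus strand): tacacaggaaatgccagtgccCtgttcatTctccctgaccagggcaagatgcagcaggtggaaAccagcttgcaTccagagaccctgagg
Serpina3m (chr12:104391614-104391703, plus strand): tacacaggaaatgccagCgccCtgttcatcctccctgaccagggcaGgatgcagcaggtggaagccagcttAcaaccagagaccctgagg

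Of all stretches of 31 bases in the transcripts of a Serpina3 gene, between 21.6% (Serpina3n) and 35.0% (Serpina3m) also occurred in transcripts of another gene. According to the methods, reads were paired and longer than these stretches. The share of reads that fitted several copies was not measured. Serpina3m shared most with Serpina3k, Serpina3i with Serpina3h, and Serpina3f and Serpina3g with each other. Serpina3m also shares 60 of its 1719 exon bases with the overlapping gene Serpina3k on the same strand. The counts of the 5 Serpina3 genes are therefore uncertain to the extent that reads were divided between copies. For the other 5 genes the share of such stretches was at most 0.457%, for Emp1.

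The other 5 genes lie apart. Vim (ENSMUSG00000026728), the intermediate filament vimentin, is at chr2:13573927-13582826 on the plus strand, and Cd44 (ENSMUSG00000005087), the hyaluronan receptor, at chr2:102811141-102901665 on the minus strand. Osmr (ENSMUSG00000022146), the receptor subunit for oncostatin M, is at chr15:6813577-6874969 on the minus strand. S1pr3 (ENSMUSG00000067586), a G protein-coupled receptor for sphingosine 1-phosphate, is at chr13:51408639-51422797 on the plus strand. It shares 45 of its 4463 exon bases with Gm32834 on the opposite strand, and whether the counting used strand is not given in the sources used here. Emp1 (ENSMUSG00000030208), a membrane protein of the family of peripheral myelin protein 22, is at chr6:135362545-135383173 on the plus strand.

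The promoters of the Serpina3 genes also keep short stretches in common. RefSeq promoters (GRCm38.p6, 250 bases before to 50 after a start site) were matched for 9 of the 10 genes, all but Serpina3m, with 11 promoters in total. The palindrome TTCNNNGAA, to which STAT proteins can bind, was found in 4 of the 9 genes with a promoter, namely Serpina3f, Serpina3g, Serpina3i and Emp1. It was in 8.3% of all 32851 promoters, a share that counts promoters and not genes, as a gene can have several. In the 3 Serpina3 genes it stood in an alignable stretch, shown here with the matching 9 bases in capitals, beside the aligned bases of Serpina3n.
Serpina3g (chr12:104236094-104236142, plus strand): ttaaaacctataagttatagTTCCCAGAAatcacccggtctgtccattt
Serpina3i (chr12:104263000-104263048, plus strand): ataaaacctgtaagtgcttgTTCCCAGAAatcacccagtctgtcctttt
Serpina3f (chr12:104214403-104214451, plus strand): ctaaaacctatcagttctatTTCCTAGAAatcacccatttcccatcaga
Serpina3n (chr12:104406565-104406613, plus strand): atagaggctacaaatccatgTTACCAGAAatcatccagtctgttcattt

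Counted from 1 at the 5′ end of the 9 bases and with the base of Serpina3g first, Serpina3f differed by C5T, which leaves the palindrome, and Serpina3n by C3A, which does not. Of the Emp1 promoters, 1 held the palindrome, at 2 places beginning 120 and 22 bases before the start site. The AP-1 motif TGANTCA, read on both strands as all motifs were, stood at 2 places in Emp1, of which the one beginning 25 bases before the start overlapped a palindrome, and at 1 place in Osmr, against 7.81% of all promoters. The kappa B motif was found in Vim, Serpina3g and Serpina3i, against 5.8% of all promoters. The interferon-stimulated response element, searched as GAAA, any 2 bases and GAAA, was in none of the 9 genes with a promoter, and in 3.44% of all. These matches describe the letters only, and no binding was measured.

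Libraries of the A2A antagonist group held 38427491 to 45878639 counts and those of the dual group 32630602 to 45544451. The identity of the cells was checked on marker genes, given as FPKM (read counts corrected by the authors for gene length and sequencing depth), summed over each list. All 10 microglial markers were detected, at 597 to 669 FPKM in the A2A antagonist group and 546 to 586 in the dual group. C1qa, at 420 FPKM on average and lower in the dual group, carried most of these sums. Of the 10 markers, 4 were higher and 6 lower in the dual group. Without overlap between the groups were 1 higher and 2 lower, against 3.35% and 4.06% of all genes tested. The median log2 fold change of the 10 markers was -0.0215. The homeostatic markers P2ry12 and Tmem119 stood at only 0.573 to 0.975 and 2.74 to 3.55 FPKM. All 10 astrocyte markers were detected too, at 731 to 759 and 723 to 787 FPKM, led by Aqp4, the water channel of astrocyte endfeet (256 FPKM on average), and Slc1a3, a glutamate transporter (218). Meningeal fibroblast markers summed to 280 to 315 and 281 to 352 FPKM. Oligodendrocyte lineage markers summed to 178 to 193 and 162 to 178 FPKM, and mural markers to 61.9 to 69.3 and 64.7 to 71.9 FPKM. Endothelial markers reached at most 11.7 FPKM and neuronal markers at most 8.68 FPKM. Marker transcripts of other cells, astrocytes and fibroblasts among them, were thus present in cultures labelled as microglia. In bulk RNA, fewer cells of a type and less RNA per cell cannot be told apart, and which cells the transcripts of the 10 genes came from was not tested.

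The 10 genes covered a wide range of levels. Vim had the highest level per length, 645 FPKM on average over the 8 libraries (rank 36 of all genes), followed by Serpina3n with 329 FPKM (rank 82), S1pr3 with 260 (rank 119), Cd44 with 124 (rank 308) and Osmr with 40.2. Serpina3i had 6.78 FPKM, Serpina3g 5.52, Emp1 2.75, Serpina3f 0.784 and Serpina3m 0.333. Neighbours in this order overlapped over the libraries only for Serpina3i with Serpina3g and for Serpina3f with Serpina3m. Of the summed FPKM of the 5 Serpina3 genes, Serpina3n carried 95.4% to 96.6%. Copies outside the 10 are not part of this sum. A further copy that was not among the 10, Serpina3h, stood at 26.5 FPKM, above Serpina3i, with which it shares most of the 31-base stretches that are not unique.

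**Figure D1:**
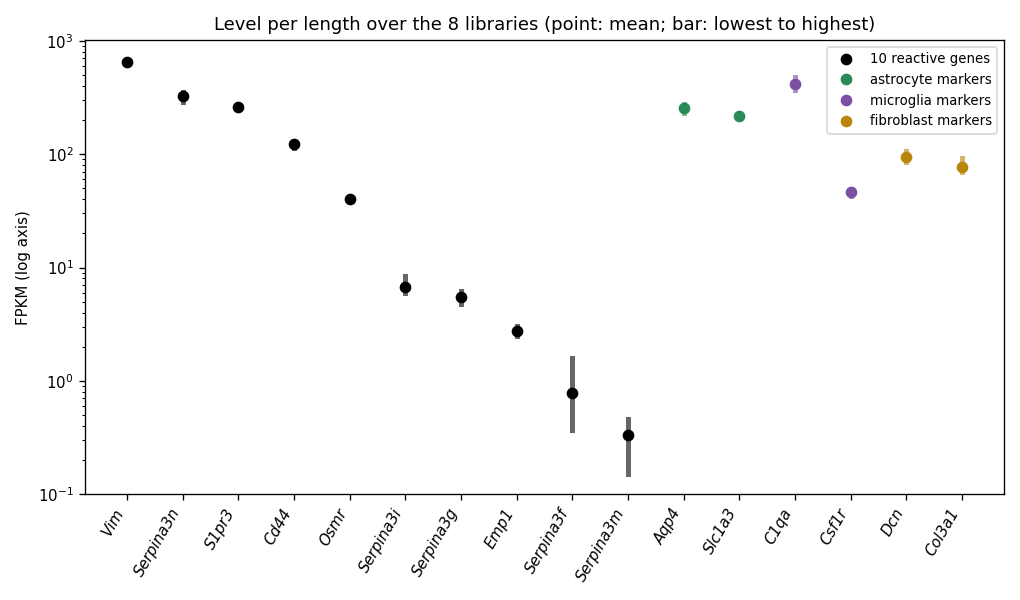
Level per length (FPKM, log axis) of the 10 reactive genes and of the 2 most abundant astrocyte, microglia and fibroblast markers. Points are means over the 8 libraries and bars run from the lowest to the highest library. The levels of the 10 genes run from 645 FPKM for Vim to 0.333 for Serpina3m, and the bars of Serpina3f and Serpina3m are the widest on the log axis.

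The comparison of combined with single treatment asked whether adding the A3 receptor agonist altered these genes. All 10 genes passed the filter on low counts, and 0 of 10 were called in the edgeR test (adjusted p-value under 0.05 over 18756 genes), in which 39 genes (0.208%) were called, 9 higher (0.048%) and 30 lower (0.16%) in the dual group. Before adjustment, 2 of the 10 (Serpina3n and Cd44) had a p-value under 0.05, against 2400 genes or 12.8% of those tested. DESeq2 also called 0 of the 10, against 3.37% of the genes for which it gave an adjusted p-value. It gave none for 2 of the 10, Serpina3f and Serpina3m. Without adjustment, DESeq2 gave 2 of the 10 a p-value under 0.05. The share of all genes with such a p-value was not computed for DESeq2. The groups did not overlap for 3 of the 10 (Serpina3n, Cd44 and S1pr3), against 7.41% of the genes tested. Of these, 1 was higher in the dual group (background 3.35%) and 2 were lower (background 4.06%). Fitted log2 fold changes were above 0 for 3 genes and below 0 for 7, with a median of -0.04, against 0.0038 over all genes tested.

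Serpina3n, the abundant secreted serpin of the group, had levels of 657, 686, 596 and 673 CPM (counts scaled to library size and composition) in A2A antagonist replicates 1 to 4. In the dual group it had 694, 714, 730 and 718 CPM. Every dual library was above every A2A antagonist library, the nearest pair being 686 and 694. The group means, 653 ± 39.6 and 714 ± 15 CPM (SD, n = 4 each), gave a log2 fold change of 0.13 (SE 0.04), or 9.34% more in the dual group with a 95% interval of 3.35% to 15.7%. The difference missed the threshold (edgeR adjusted p = 0.154), and over the alternatives the adjusted p ranged from 0.0506 to 0.362.

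Of the 4 low-abundance copies, 0 were called. Serpina3f, of which 38 to 166 reads were counted per library, had 2.05, 3.65, 1.48 and 1.45 CPM with the antagonist and 1.5, 2, 1.48 and 0.857 CPM with both ligands. The groups overlapped and 1 antagonist library, replicate 2, was well above the rest. The log2 fold change was -0.58 (SE 0.28, edgeR adjusted p = 0.397), and -0.19 without that replicate. Serpina3m, with 11 to 34 reads, was the rarest and had 0.311, 0.483, 0.263 and 0.748 CPM with the antagonist and 0.796, 0.683, 0.588 and 0.744 CPM with both ligands. Antagonist replicate 4 lay within the range of the dual libraries, and the other antagonist libraries lay below it. The log2 fold change of 0.61 had a 95% interval of -0.04 to 1.26 (edgeR adjusted p = 0.424). Neither a lack of change nor a doubling could therefore be set aside in these libraries.

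Serpina3g, an intracellular serpin of immune cells, had 12.9, 11.7, 13.2 and 10.4 CPM with the antagonist and 11.4, 10, 11.8 and 12.3 CPM with both ligands. The libraries of the groups were interleaved, and the log2 fold change was -0.08 with a 95% interval of -0.25 to 0.10 (edgeR adjusted p = 0.765). Serpina3i had 14.2, 18.9, 14 and 16.3 CPM with the antagonist and 14.3, 13.4, 14.7 and 15.5 CPM with both ligands. Its groups overlapped as well, at a log2 fold change of -0.13 with a 95% interval of -0.31 to 0.05 (edgeR adjusted p = 0.545). For comparison, Serpina3h had a log2 fold change of 0.04 (SE 0.05, edgeR adjusted p = 0.801), and Serpina3c was nearly undetected, at 0.0206 FPKM.

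Of the receptors, Cd44 had 872, 861, 874 and 886 CPM with the antagonist and 791, 853, 778 and 847 CPM with both ligands. All dual libraries were below all antagonist libraries, although dual replicates 2 and 4 came close to them. The means of 873 ± 10.2 and 817 ± 38.2 CPM (SD, n = 4 each) gave a log2 fold change of -0.10 (SE 0.03), a change of -6.42% with a 95% interval of -10.9% to -1.67%. This did not pass the adjusted threshold (edgeR adjusted p = 0.223), and over the alternatives the adjusted p ranged from 0.0753 to 0.471. S1pr3 had 1182.5, 1185.7, 1161.4 and 1208.1 CPM with the antagonist and 1146.8, 1160.0, 1155.3 and 1135.2 CPM with both ligands. Its groups were also separate, by a gap of little more than 1 CPM between the nearest libraries, and the log2 fold change of -0.04 had a 95% interval of -0.10 to 0.02 (edgeR adjusted p = 0.557). Osmr had 496, 489, 498 and 501 CPM with the antagonist and 473, 485, 474 and 510 CPM with both ligands. The highest Osmr library was a dual one, replicate 4, and the log2 fold change was -0.03 (SE 0.03, edgeR adjusted p = 0.744).

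Vim had 3083.8, 3116.9, 2990.7 and 3120.2 CPM with the antagonist and 3076.3, 3083.4, 3176.8 and 2972.7 CPM with both ligands. Both extremes were dual libraries, and the means, 3077.9 ± 60.4 and 3077.3 ± 83.4 CPM (SD, n = 4 each), were nearly equal. The 95% interval of the difference ran from -4.27% to 4.44%, and among the 10 genes only that of S1pr3 was narrower on the log2 scale. Emp1 had 15.8, 15.1, 15 and 16.9 CPM with the antagonist and 17.8, 14.8, 18.3 and 17.7 CPM with both ligands. Dual replicates 1, 3 and 4 were above all antagonist libraries and dual replicate 2 was below them, with a log2 fold change of 0.13 and a 95% interval of -0.02 to 0.27 (edgeR adjusted p = 0.468).

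**Figure D2:**
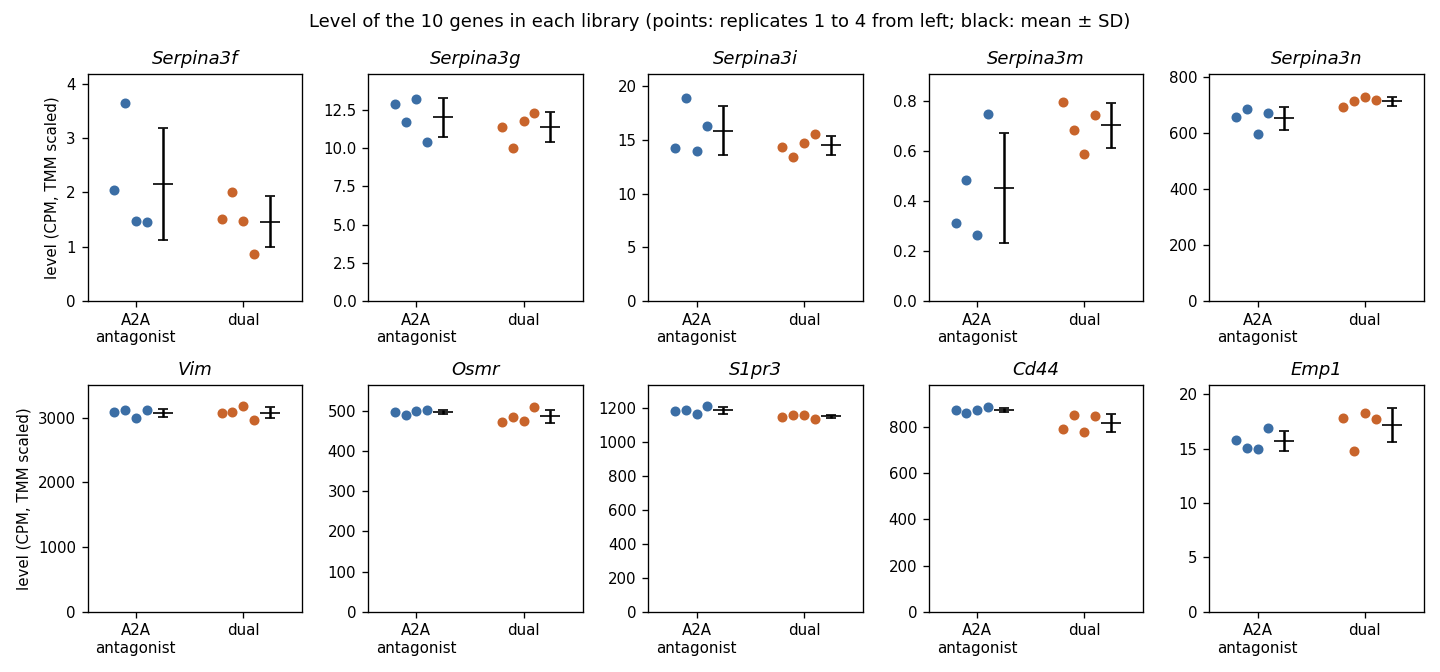
Level of each of the 10 genes in the 8 libraries (CPM, axis from 0), with the A2A antagonist group in blue, the dual group in orange, replicates 1 to 4 from left to right, and the mean with SD in black. Points of the groups are separate for Serpina3n, S1pr3 and Cd44 and overlap for the other 7 genes.

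**Figure D3:**
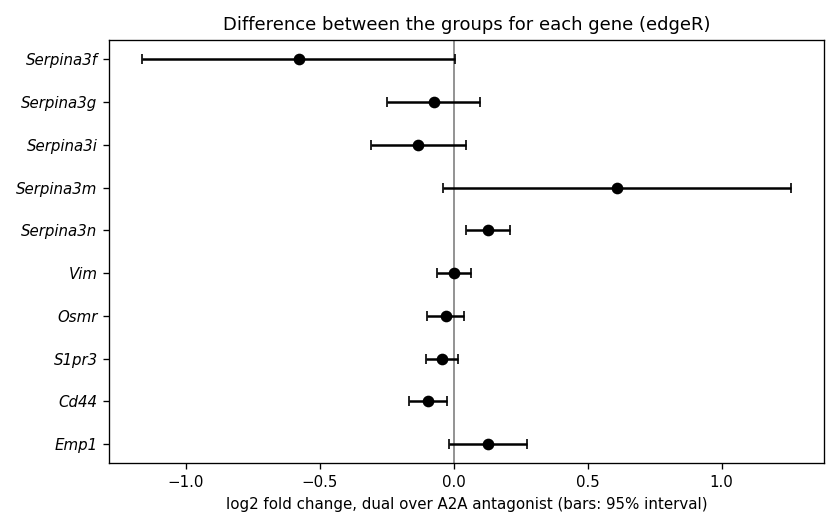
Log2 fold change of each gene, dual over A2A antagonist, with its 95% interval from edgeR. The intervals of Serpina3n (0.0475 to 0.21) and Cd44 (-0.17 to -0.02) lie on either side of 0 without crossing it, those of the other 8 genes cross 0, and Serpina3f and Serpina3m have the widest.

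The level of the genes in activated control cells was taken only from the authors' mean, in counts normalised by size factors. Columns of 3 control libraries are also given, but they match no sample of this series and were not used. The ratio of the A2A antagonist to control therefore has neither an error nor a test here. Of the 10 genes, 7 had a ratio above 1 and 3 below, where 53.3% of the genes tested were above 1, and the median ratio was 1.1 against 1.01. Past 1.5-fold there were 0 of the 10 upwards, against 4.38% of genes, and 2 downwards, Serpina3g and Emp1, against 9.33%. Serpina3g had an authors' mean of 1527 in control and 519 with the antagonist, 2.94-fold lower, and only 1.27% of genes had a smaller ratio. Emp1 had authors' means of 1416.5 and 678, 2.09-fold lower. Serpina3f was just short of the limit, with authors' means of 139 and 93.1 and a ratio of 0.668.

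The abundant genes had ratios above 1. S1pr3 had authors' means of 35735 in control and 51094.9 with the antagonist, and Cd44 had 26386.9 and 37669.3, a ratio of 1.43 for each, with 94.4% of genes below it. Vim had authors' means of 98171.2 and 132777.5 (ratio 1.35), and Serpina3m, at low level, had 15.1 and 19.5 (ratio 1.29). Osmr (ratio 1.11), Serpina3n (1.1) and Serpina3i (1.04) were closest to equality. Within the Serpina3 cluster the ratios thus ran from 0.34 for Serpina3g to 1.29 for Serpina3m. Marker genes moved in this comparison as well. Of 6 fibroblast markers 5 were below 1/1.5 (median ratio 0.288, Col1a1 0.216 and Col3a1 0.235), whereas 3 of 10 astrocyte markers were above 1.5 and 1 was below 1/1.5 (median ratio 1.11), and for the 10 microglial markers these counts were 0 and 1 (median ratio 1.11). The part of these shifts in the ratios of the 10 genes was not tested.

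**Figure D4:**
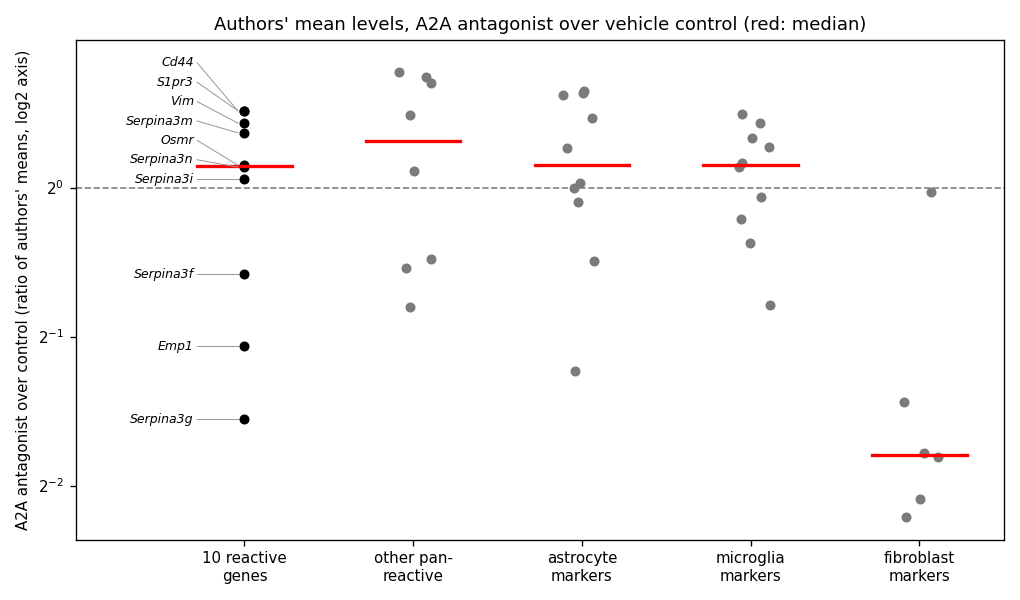
Ratio of the authors' mean with the A2A antagonist to the authors' mean in control (log2 axis) for the 10 reactive genes, other pan-reactive genes and markers of astrocytes, microglia and fibroblasts. Red lines are medians. Serpina3g (0.34), Emp1 (0.478) and Serpina3f (0.668) lie below the line of equal means and the other 7 genes above it, while the fibroblast markers have a median of 0.288.

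Genes of the same programmes and pathways were followed in lists of 82 genes outside the 10. Of these, 70 were tested in the comparison of the dual with the A2A antagonist group and 2 were called (background 0.208%), both lower in the dual group. Cxcl10, an interferon-induced chemokine counted among pan-reactive genes, fell from 486 ± 30.7 to 413 ± 21 CPM (SD, n = 4 each), a log2 fold change of -0.24 (SE 0.04, edgeR adjusted p = 0.0311). Psmb8, an immunoproteasome subunit of the neurotoxic-type (A1) set, fell from 167 ± 7.16 to 146 ± 6.22 CPM (SD, n = 4 each), a log2 fold change of -0.20 (SE 0.04, edgeR adjusted p = 0.0393). Both calls were lost without A2A antagonist replicate 4 or dual replicate 3, when 0 genes were called. The microglial complement gene C1qa was called in the same direction, at a log2 fold change of -0.24 (edgeR adjusted p = 0.024), and its call was lost in the same way. The counts of both are uncertain at shared bases, as Cxcl10 shares 133 of 2252 exon bases with Art3 and Psmb8 498 of 3381 with Gm20496, each on the opposite strand. The same holds for Cp, Stat3, Spp1, Ezr, Msn, Plec and Ctsl among the genes named below, and for Csf1r and Col3a1 among the markers. The median log2 fold change over the 70 genes was -0.0179.

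The other 7 pan-reactive genes were not called. The 3 most abundant were Lcn2, Cp and Steap4. Lcn2, the siderophore-binding lipocalin 2, had 2681.4 FPKM on average and an antagonist to control ratio of 1.63, Cp (ceruloplasmin) had 545 FPKM and 1.67, and Steap4, a metalloreductase, had 486 FPKM and 1.71. These were the only 3 of the 8 pan-reactive genes above 1.5, and 1 of the 8, Aspg (4.56 FPKM, ratio 0.575), was below 1/1.5. The median ratio of the 8 was 1.24. Hspb1 had a ratio of 0.689, Timp1 of 0.718 and Gfap of 1.08, and Aspg, Hspb1 and Timp1 were named after their values were seen. Of the 11 trophic-type (A2) genes outside the 10, 0 were called, and their median log2 fold change was -0.04. Ptx3, the soluble pattern recognition protein pentraxin 3, had 490 FPKM and a ratio of 1.38, and Cd14, the LPS co-receptor, had 410 FPKM and a ratio of 1.06. Emp1, with 2.75 FPKM and a ratio of 0.478, was far below these 2 genes in level. Tm4sf1, a membrane protein that crosses the membrane several times like Emp1, had 89.2 FPKM, a log2 fold change of -0.08 (edgeR adjusted p = 0.255) and no overlap between the groups. Of the 12 neurotoxic-type genes, 1 was called, Psmb8. The most abundant were the class I histocompatibility genes H2-D1 (1387.5 FPKM, log2 fold change -0.12, edgeR adjusted p = 0.146) and H2-T23 (141 FPKM, log2 fold change -0.24, edgeR adjusted p = 0.0602), whose counts may be shared with close copies, and Serping1, the C1 inhibitor, itself a serpin (167 FPKM, log2 fold change -0.0033, ratio 0.724).

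Among the partners of Osmr, 0 of 12 genes of the oncostatin M and interleukin-6 pathway were called in the dual against A2A antagonist comparison. Osm, the ligand of Osmr, was at 2.15 FPKM on average, with a log2 fold change of -0.18 (edgeR adjusted p = 0.554). Il6st, the signalling subunit gp130 with which Osmr pairs, was at 73.8 FPKM, with 801 ± 3.46 CPM with the antagonist and 848 ± 29.9 CPM with both ligands (SD, n = 4 each, edgeR adjusted p = 0.27). Its antagonist to control ratio of 0.596 was opposite in direction to that of Osmr. Stat3, the transcription factor downstream, had 74.4 FPKM and Socs3, its feedback inhibitor, 97.5 FPKM, with log2 fold changes of -0.03 and -0.14.

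For S1pr3, 0 of 10 genes of the sphingosine 1-phosphate pathway were called. S1pr3, at 260 FPKM, was well above S1pr1, another receptor for the same lipid, at 36.7 FPKM. Plpp3, a lipid phosphatase, was at 354 FPKM and Sgpl1, the lyase that degrades sphingosine 1-phosphate, at 60 FPKM, with log2 fold changes of -0.05 and -0.04. For Cd44, 0 of 8 ligands and linkers were called. Spp1 (osteopontin) was at 132 FPKM, and the cytoskeletal linkers Ezr and Msn at 154 and 114 FPKM, with log2 fold changes between -0.05 and -0.02.

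Besides Vim, 4 of 6 intermediate filament genes were tested and 0 were called, while all 4 had fitted fold changes above 0. Gfap, the classical filament of reactive astrocytes, was at 390 FPKM, below Vim, with a log2 fold change of 0.03 and a ratio of 1.08. Nes (nestin) was at 67.1 FPKM and the filament linker Plec at 20.9 FPKM. In the family of Emp1, 0 of 3 genes were called, and Emp3 (32.1 FPKM), Pmp22 (22.9) and Emp2 (8.19) were all above Emp1 in level. Of 8 proteases known or related to targets of Serpina3 proteins, 3 could be tested and 0 were called. Ctsl, the lysosomal protease cathepsin L, was the most abundant at 78.9 FPKM, and Klk6 was close to undetected at 0.156 FPKM.

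Correlations between the 10 genes within the groups were taken over the 8 libraries. After subtraction of each group mean, log2 CPM correlated most between Osmr and Cd44 (Pearson r = 0.782), Vim and S1pr3 (0.772) and Serpina3i and Serpina3n (0.698), and least between Serpina3g and S1pr3 (-0.854). These values are the extremes over all pairs of the 10 genes. They rest on 8 points that share library composition, were not tested and are given as a description. By the same measure, the genes most like Serpina3n among 11061 were Glyr1 (0.967), Ccdc96 (0.965), Hivep2 (0.962), Slc17a5 (0.959) and Rpusd4 (0.956). Those most like Vim were Snx8 (0.994), Nhsl1 (0.974), Ncoa5 (0.971), Tgfb1i1 (0.965) and P2rx6 (0.965). None of the other 9 genes was among these lists. Serpina3f and Serpina3m could not be, as their levels were below the limit set for the search.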

How the data were processed

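RNA sequencing was performed on 8 libraries of activated primary mouse microglia. According to the methods, the authors aligned reads with HISAT2 to a mouse genome (mm10 per the labels) and counted them with featureCounts 1.5.0-p3. The deposited tables hold raw counts per gene, FPKM computed by the authors, and mean columns of the authors' size-factor normalised signal. They also hold the authors' fold changes and p-values, which were not used. The 9 columns of 3 control libraries match no sample of this series and were not used. The 30302 genes in both tables had identical antagonist counts.

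The test was that of edgeR 4.0.16, run in R 4.3.3 on the counts (filterByExpr, minimum count 10, TMM scaling, quasi-likelihood F test without covariates, two-sided, Benjamini-Hochberg over all genes tested, threshold 0.05). Standard errors and 95% intervals came from the F statistics. Alternatives were other scalings, no low-count filter, DESeq2 1.42.0, a replicate block and leaving out each library. Scripts were tested on simulated data. Nothing in the labels ties libraries to separate litters, so p-values measure the spread between these samples, which may be technical. Within each group, no library was a copy of another. The chi-square per degree of freedom between replicates of a group was 3.8 to 9.43, where counting noise gives 1. Pairs across the groups were not compared in this way.

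The 10 genes and the lists were chosen with earlier results of these data known. Named are all 10 genes, called genes of the lists, the 3 most abundant per list, and the 5 genes most correlated with Serpina3n and with Vim among those whose mean log2 CPM was 3 or more. One gene named by this rule is not reported here. Sequences are from GENCODE M21 (coding) and RefSeq GRCm38.p6 (promoters).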

Additional observations from a re-analysis of the deposited data

How the results depend on the processing

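None of the 10 genes was called under any of the 14 alternatives, and the smallest adjusted p-value was 0.0506 for Serpina3n with DESeq2. Of 140 member values over these alternatives, 135 kept their direction and their side of the threshold, and 5 reversed, all for Vim, whose log2 fold change of about 0 became 0.0101 with library totals only, 0.0082 with upper-quartile scaling, 0.0057 and 0.0062 without A2A antagonist replicates 2 and 4, and 0.0159 without dual replicate 4 (range -0.0186 to 0.0159 when 1 library was left out). The cause was not tested. DESeq2 gave no adjusted p-value for Serpina3f and Serpina3m, so for these 2 of the 135 values only the direction was compared. The number of genes called in the whole table, 39, moved to 366 without the low-count filter, to 381 with DESeq2, and between 0 and 172 when 1 library was left out (172 without A2A antagonist replicate 1, 5, 6 and 0 without replicates 2, 3 and 4, and 0 without dual replicate 3). With the replicate number as a block 17 genes and 0 of the 10 were called. The numbers only name the libraries, as same-numbered libraries had correlations of -0.2 to -0.0482 after centring, and no library correlated best with its own number. Serpina3m (11 to 34 reads) and Serpina3f (38 to 166 reads) had the fewest reads and the widest intervals. Why their intervals were wide was not tested. By Dixon's criterion at the 95% level, 0 of 20 groups, each 1 of the 10 genes in 1 treatment, held an outlying library.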
